A study of Mus musculus with 39 samples.

Results

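The chemokine ligands described here are all 36 entries, among 34600 entries in the deposited tables, whose symbol is Ccl, Cxcl or Cx3cl followed by a number and, in some, a letter. They were measured by total RNA sequencing in 39 libraries from mice of the inbred strains BALB/cJ (6 animals) and C57BL/6J (7 animals). Every animal contributed colon, ileum and a sample labelled duodenum/jejunum, so the 6 groups are BALB/cJ and C57BL/6J colon, BALB/cJ and C57BL/6J ileum, and BALB/cJ and C57BL/6J duodenum/jejunum. The labels name no engineered allele and no treatment in either strain. Levels are in TPM, a measure of transcript abundance corrected for transcript length. Differences are on the log2(TPM + 1) scale with their standard error (SE), and a gene was called when its adjusted p from limma was below 0.05.

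Chemokines are small secreted proteins that bind to G protein-coupled receptors on leukocytes and direct where these cells move and settle. In the gut, epithelial cells make ligands that bring T and B cells to the lining, stromal and lymphatic cells make ligands that organise lymphoid follicles, and macrophages and T cells make ligands that are induced by interferon or microbial products. A bulk library holds all of these cells together, so fewer cells of a type and less RNA per cell cannot be told apart.

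Libraries summed to between 979558 and 996230 TPM, and 16 to 28 of the 36 ligands reached 1 TPM in a library. By markers of gut regions, a pair of libraries of C57BL/6J mouse 2 stood apart. In its library labelled ileum, Fabp6, a bile acid carrier of the ileum, had 22.1 TPM (group median 4658 TPM), and Tmprss15, the enteropeptidase gene of the proximal small intestine, had 51.2 TPM (group median 0.0253 TPM), which goes against the label. Its library labelled duodenum/jejunum held markers of both regions: Fabp6 had 6111 TPM (group median 8.07 TPM), Tmprss15 was at its group median of 39.2 TPM, and the summed stomach markers were the highest of the group at 1079 TPM. Where leaving out this mouse changed the call of a ligand's difference given here, the value without it stands beside that difference. A further library that stood apart was the ileum of BALB/cJ mouse 2, whose summed level of 8 B cell markers was 244.9 TPM, against a group median of 131 TPM. Beyond the ileum, the 4 stomach markers summed to between 1.64 and 1714 TPM in BALB/cJ and between 7.89 and 1079 TPM in C57BL/6J duodenum/jejunum libraries, and the 5 pancreas markers to between 0.656 and 3844 TPM and between 0.835 and 4040 TPM. In BALB/cJ colon the pancreas markers summed to 633 TPM in mouse 3 and 196.2 TPM in mouse 5 (group median 4.16 TPM). In C57BL/6J colon their sum was at most 8.44 TPM. The part of stomach and pancreas RNA in the results was not tested.

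A pair of genes made up most of the chemokine RNA. Ccl25 accounted for a median of 58.2% of the summed TPM of the 36 ligands in BALB/cJ ileum and 55.5% in C57BL/6J ileum, and for 68% and 60.3% in BALB/cJ and C57BL/6J duodenum/jejunum. In the colon its share was 1.71% in BALB/cJ and 2.11% in C57BL/6J, and Ccl6 took the first place with 63.3% and 66.8%. Of the 36 ligands, 20 either differed between the strains in at least 1 tissue or averaged at least 10 TPM in a group, and these are described with their values. The other 16 ranged from 0 TPM in every library (Ccl26 and Ccl27b) to a highest single value of 12.5 TPM (Ccl21b).

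**Figure D1:**
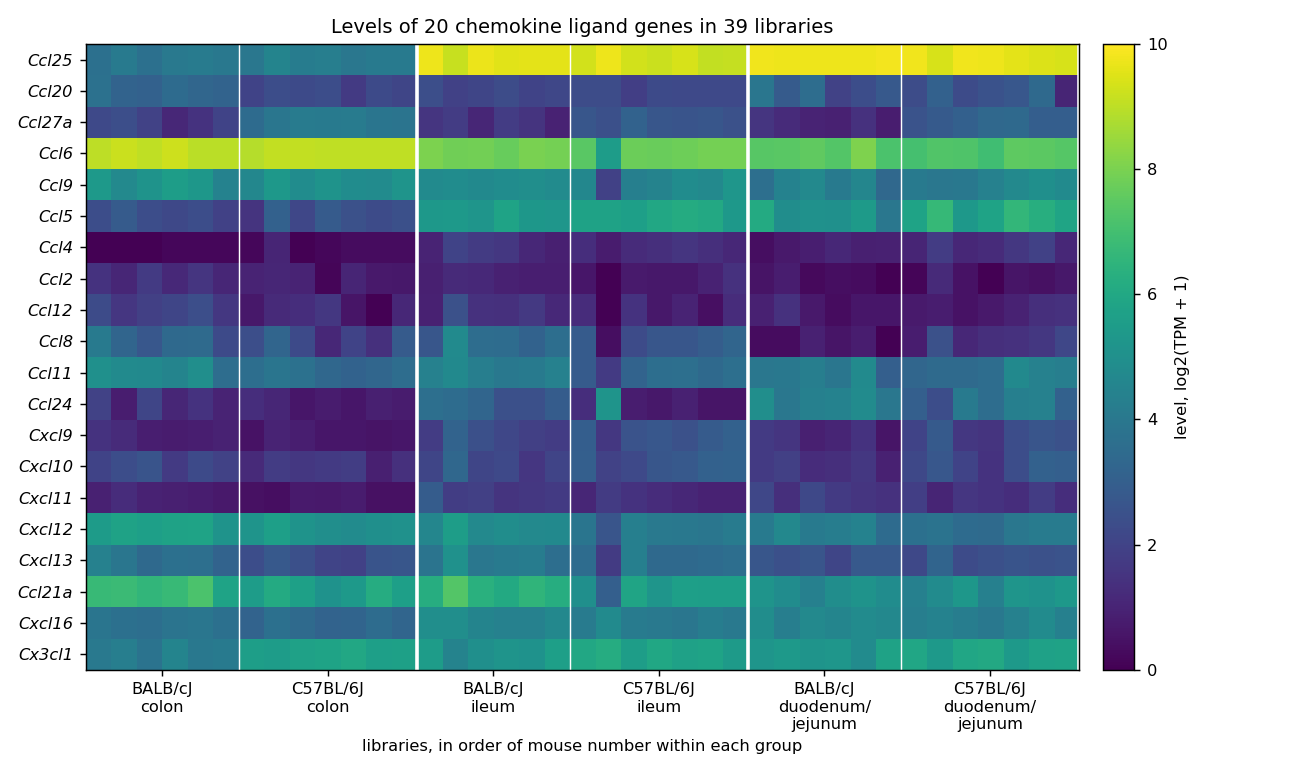
Level of 20 chemokine ligand genes (rows) in 39 libraries (columns), as log2(TPM + 1), with BALB/cJ left of C57BL/6J within each tissue and thick lines between tissues. Ccl6 is bright in all colon libraries, Ccl25 in all small intestine libraries, and the second C57BL/6J ileum column departs from its group in Ccl24, Ccl6, Ccl9 and Ccl21a.

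Between the strains, 11 ligands differed in colon, 8 in ileum and 5 in duodenum/jejunum. In colon libraries 23 of the 36 ligands passed the filter on low values (at least 1 TPM in at least 6 libraries), and 9 were higher in BALB/cJ, where 14.5% of all 15769 tested genes were called higher. A further 2 were lower in BALB/cJ, where 10.8% of all genes were. In the ileum, 5 of 25 tested ligands were higher (17.2% of 15537 genes) and 3 were lower (3.17%). In the duodenum/jejunum, 0 of 23 tested ligands were higher (4.7% of 15306 genes) and 5 were lower (4.8%). At an unadjusted limma p under 0.05, 2 were higher and 8 lower there. Median differences of the tested ligands were 0.49 (colon), 0.23 (ileum) and 0.03 (duodenum/jejunum), beside 0.02, 0.17 and 0.01 over all genes. The ileum median of all genes, 0.17, is a shift of the whole table: after scaling the libraries by the median of gene ratios (RLE) it was -0.01, and 2 ligands were then called higher and 3 lower. Over all genes, 912 of 1803 calls were higher after that scaling, against 2677 of 3169 as reported. With C57BL/6J mouse 2 left out and no such scaling, the ileum gave 7 ligands higher and 3 lower, and the duodenum/jejunum 0 higher and 4 lower. Without that mouse, 3032 of 3628 calls over all genes were higher in the ileum, and 649 of 1358 in the duodenum/jejunum. Altogether 16 ligands were called in at least 1 tissue, 9 of them in 1 tissue alone, and Ccl27a was called in all 3.

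**Figure D2:**
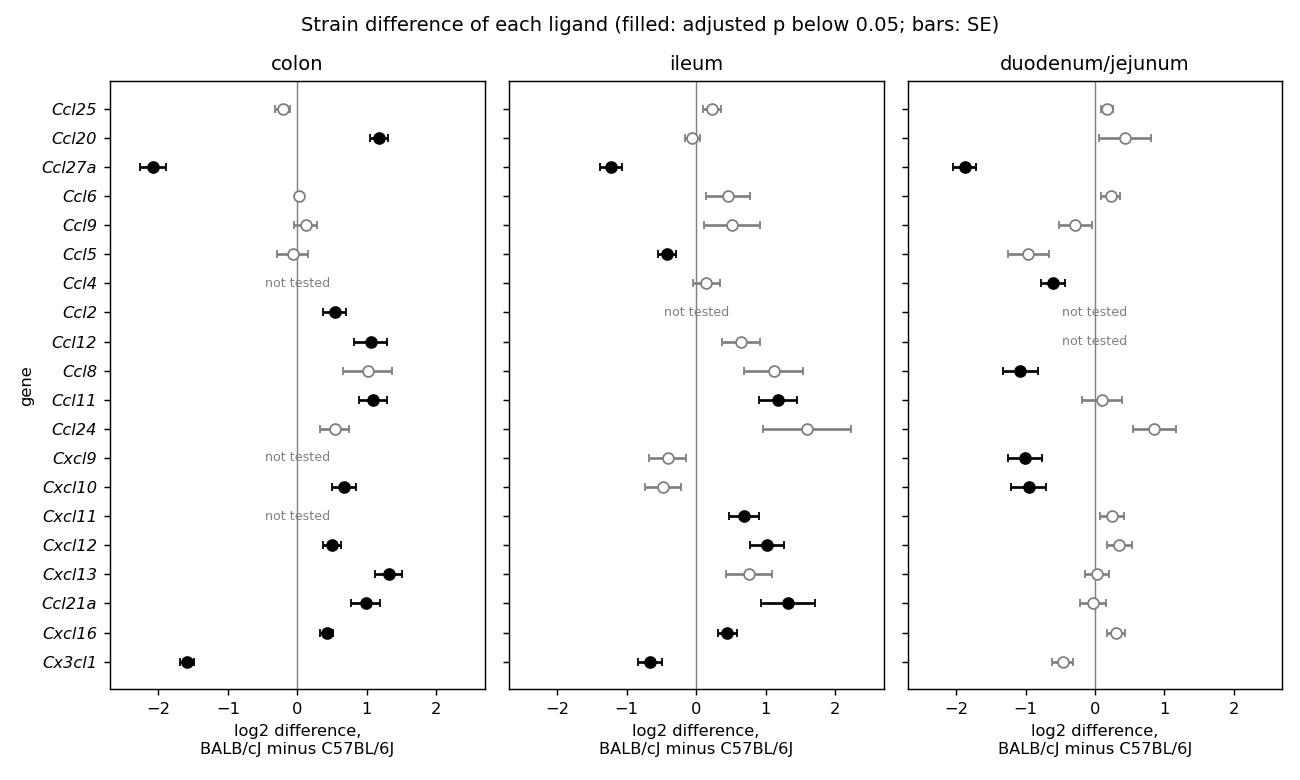
Difference in level between the strains (BALB/cJ minus C57BL/6J, log2(TPM + 1) scale, horizontal axis) for 20 ligands in each tissue. Filled points passed an adjusted p of 0.05, bars are SE, and Ccl27a lies left of 0 in all 3 panels, while Ccl20 and Cxcl13 are filled in the colon panel alone.

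Among the ligands made by epithelium, Ccl25, which draws T and B cells with the receptor Ccr9 to the small intestine, was the most abundant. In the colon it ranged from 12.01 to 16.8 TPM (median 15.2) in BALB/cJ and from 14.5 to 21.5 TPM (median 16.4) in C57BL/6J. In the ileum the values were 564.6 to 848.4 TPM (median 760.3) in BALB/cJ and 541.6 to 868.1 TPM (median 635) in C57BL/6J, and in the duodenum/jejunum 853.1 to 893.7 TPM (median 867.4) and 678.8 to 878.4 TPM (median 762.2). No colon library came near any small intestine library. The difference between colon and ileum was -5.59 ± 0.10 in BALB/cJ (adjusted p = 4.95e-19) and -5.15 ± 0.10 in C57BL/6J (adjusted p = 2.67e-20), and that between colon and duodenum/jejunum was -5.81 ± 0.10 and -5.43 ± 0.10. Ileum and duodenum/jejunum were not called apart in either strain, although the BALB/cJ ranges did not overlap and the BALB/cJ difference was called after RLE scaling (-0.46, adjusted p = 0.0105). Between the strains Ccl25 was not called in any tissue, with differences of -0.21 ± 0.10 for colon, 0.23 ± 0.13 for ileum and 0.17 ± 0.09 for duodenum/jejunum. Without C57BL/6J mouse 2 the ileum difference was 0.31 (adjusted p = 0.0421), and that between ileum and duodenum/jejunum in C57BL/6J was -0.39 (adjusted p = 0.00145). The gene lies on chromosome 8 (4325210 to 4360020, plus strand, GENCODE M21 on GRCm38), where it overlaps Elavl1 on the other strand.

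Ccl20 recruits B cells, dendritic cells and Th17 cells that carry Ccr6, and is made by the epithelium over lymphoid follicles. Its colon levels were 7.50 to 12.1 TPM (median 8.45) in BALB/cJ and 2.26 to 4.18 TPM (median 3.75) in C57BL/6J. All 6 BALB/cJ colons lay above all 7 C57BL/6J colons, a 2.62-fold difference in means (log2 difference 1.17 ± 0.13, adjusted p = 7.87e-06). In the ileum the groups overlapped, at 2.80 to 4.24 TPM in BALB/cJ and 2.61 to 4.06 TPM in C57BL/6J (difference -0.05 ± 0.11), and they overlapped in the duodenum/jejunum as well (2.92 to 14.4 TPM and 1.05 to 9.76 TPM). Within BALB/cJ, Ccl20 was higher in colon than in ileum by 1.18 ± 0.25 (adjusted p = 0.000594), and lower in ileum than in duodenum/jejunum by -0.78 ± 0.25 (adjusted p = 0.0162). The second call was lost without BALB/cJ mouse 2 or mouse 3, at an adjusted p of up to 0.07. C57BL/6J tissues gave no call. The test that the strain difference changes between tissues missed the threshold (adjusted p = 0.0541) and passed it with the mouse as a correlated block (adjusted p = 0.0334). Its receptor gene Ccr6 was also higher in BALB/cJ colon (2.42 ± 0.45 TPM against 0.644 ± 0.27 TPM, difference 1.06 ± 0.12, adjusted p = 1.6e-05).

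Ccl27a, a ligand of Ccr10 best known from skin keratinocytes, was listed at a lower level in BALB/cJ in every tissue. Colon levels were 1.14 to 4.26 TPM (median 2.98) in BALB/cJ and 10.4 to 17.1 TPM (median 14.1) in C57BL/6J. Ileum levels were 0.949 to 2.41 TPM and 4.48 to 7.78 TPM, and duodenum/jejunum levels were 0.734 to 1.95 TPM and 4.85 to 9.80 TPM, with BALB/cJ first. No tissue showed overlap between the strains. Differences were -2.08 ± 0.19 (adjusted p = 1.4e-06), -1.23 ± 0.16 (adjusted p = 8.44e-05) and -1.88 ± 0.17 (adjusted p = 1.08e-06) in colon, ileum and duodenum/jejunum. By a separate measure, the ratio of mean TPM, BALB/cJ was 5.19-fold, 3.07-fold and 5.79-fold lower. The gene sits among copies on chromosome 4 (41769467 to 41774247, minus strand), and 57% of the 31-base words of its GENCODE M21 transcripts also occur in other genes, chiefly Gm20878 and Gm13306, so its level is uncertain. Gm13306 went the other way from Ccl27a, with 1.81 ± 1.38 TPM in BALB/cJ colon and 0.348 ± 0.51 TPM in C57BL/6J colon. Whether reads of the 2 strains were assigned alike among these copies on the GRCm38 build was not tested. Summed over Ccl27a, Ccl27b, Gm20878 and Gm13306, colon levels were 3.99 to 7.09 TPM in BALB/cJ and 15.3 to 19.02 TPM in C57BL/6J, and duodenum/jejunum levels were 1.08 to 3.73 TPM and 7.07 to 10.8 TPM, again without overlap. The ileum sums overlapped, at 1.40 to 8.08 TPM in BALB/cJ and 5.41 to 10.1 TPM in C57BL/6J. Within C57BL/6J, Ccl27a was higher in colon than in ileum by 1.27 ± 0.13 (adjusted p = 4.94e-08) and than in duodenum/jejunum by 0.91 ± 0.13 (adjusted p = 4.54e-06). Il11ra1, which overlaps Ccl27a on the other strand, averaged 27.6 ± 2.86 TPM in BALB/cJ colon and 34.5 ± 3.20 TPM in C57BL/6J colon.

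**Figure D3:**
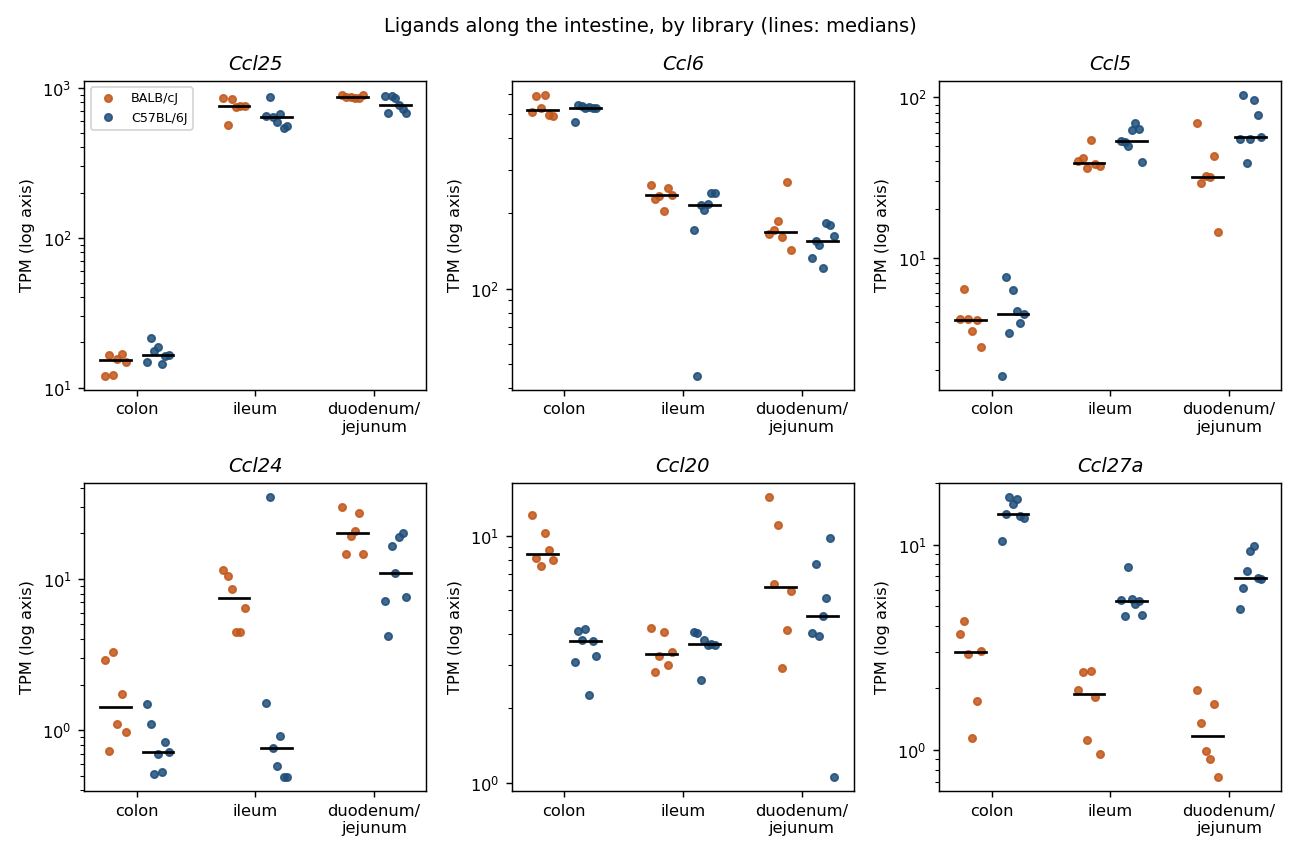
TPM (log axis) of 6 ligands in each library by tissue, with BALB/cJ (orange) left of C57BL/6J (blue) and black lines at medians. Ccl25 and Ccl5 are low in the colon and Ccl6 high in both strains, Ccl20 separates the strains in the colon, and Ccl27a separates them in all 3 tissues. One C57BL/6J ileum library, from mouse 2, lies far above its group for Ccl24 at 34.97 TPM and far below it for Ccl6 at 44.78 TPM.

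Among the inflammatory CC ligands, Ccl6 and Ccl9, rodent ligands of Ccr1, lie next to each other on chromosome 11 (83572919 to 83593087, minus strand). Ccl6 was 493.6 to 596.5 TPM (median 520.9) in BALB/cJ colon and 466.5 to 546.5 TPM (median 531) in C57BL/6J colon. Ileum levels were 203.9 to 260.3 TPM (median 237) and 44.78 to 240.9 TPM (median 215.8), and duodenum/jejunum levels were 142.7 to 268.3 TPM (median 169.1) and 120.8 to 183.2 TPM (median 155.6). In both strains every colon library exceeded every small intestine library. The colon was higher than the ileum by 1.18 ± 0.12 in BALB/cJ (adjusted p = 6.71e-08) and by 1.60 ± 0.26 in C57BL/6J (adjusted p = 1.39e-05). The strains were not called apart in any tissue, with differences of 0.03 ± 0.06, 0.46 ± 0.32 and 0.22 ± 0.14. Ccl9, which is made in the epithelium over Peyer's patches, followed Ccl6 at a lower level, with 34.3 ± 9.5 TPM in BALB/cJ colon and 30.8 ± 5.4 TPM in C57BL/6J colon. It was higher in colon than in duodenum/jejunum in BALB/cJ (0.96 ± 0.21, adjusted p = 0.000606), and the same contrast in C57BL/6J was 0.55 ± 0.34 and not called, or 0.41 and called without mouse 2 (adjusted p = 0.0369).

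Ccl5, a product of T and NK cells, had the opposite gradient. Colon levels were 2.77 to 6.39 TPM (median 4.11) in BALB/cJ and 1.84 to 7.56 TPM (median 4.45) in C57BL/6J. Ileum levels were 36.04 to 54.2 TPM (median 39.0) and 39.8 to 69.4 TPM (median 53.8), and duodenum/jejunum levels were 14.5 to 68.7 TPM (median 32.1) and 38.8 to 103.3 TPM (median 56.6). Colon was lower than ileum by -3.05 ± 0.25 in BALB/cJ (adjusted p = 4.61e-09) and by -3.40 ± 0.22 in C57BL/6J (adjusted p = 1.96e-11), with no overlap between colon and ileum. BALB/cJ ileum was lower than C57BL/6J ileum (-0.42 ± 0.13, adjusted p = 0.0343), although the ranges overlapped. The duodenum/jejunum difference of -0.96 ± 0.30 missed the threshold (adjusted p = 0.0567). The ileum call was lost in 10 of 18 alternative fits. Summed levels of 8 T cell markers were also lower in the colon, at 23.3 to 32.6 TPM in BALB/cJ colon and 80.8 to 134 TPM in BALB/cJ ileum, and at 11.7 to 21.9 TPM in C57BL/6J colon and 58.5 to 94.2 TPM in C57BL/6J ileum, and their part in the result was not tested. Ccl4, which activated macrophages and T cells make, was 0.298 to 1.16 TPM in BALB/cJ and 1.03 to 2.85 TPM in C57BL/6J duodenum/jejunum. The groups overlapped, and the difference of -0.60 ± 0.18 was called (adjusted p = 0.0415) but not in 12 of 18 alternative fits, among them the one without C57BL/6J mouse 2 (-0.54, adjusted p = 0.078). Its neighbour Ccl3 stayed at or below 2.03 TPM in every library.

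Another stretch of chromosome 11 (82035571 to 82116799) holds Ccl2, Ccl7, Ccl11, Ccl12 and Ccl8 on the plus strand, ligands for monocytes, eosinophils and other leukocytes. All 5 had positive differences in the colon, and 3 of them were called higher in BALB/cJ. Ccl11, the eosinophil attractant eotaxin, was 11.02 to 31.8 TPM (median 26.1) in BALB/cJ colon and 7.73 to 13.8 TPM (median 10.99) in C57BL/6J colon. These ranges overlapped at 1 end, and the means differed 2.32-fold (1.09 ± 0.20, adjusted p = 0.00125). In the ileum it was 15.1 to 25.9 TPM in BALB/cJ and 2.21 to 11.5 TPM in C57BL/6J, with no overlap (1.18 ± 0.28, adjusted p = 0.01; 0.935 without C57BL/6J mouse 2, adjusted p = 0.000878). The duodenum/jejunum gave 7.09 to 26.2 TPM and 8.75 to 26.1 TPM and no call (0.10 ± 0.28).

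Ccl12 and Ccl2, which attract monocytes through Ccr2, were low. Ccl12 was 2.03 to 4.32 TPM in BALB/cJ colon and 0 to 2.11 TPM in C57BL/6J colon (1.06 ± 0.24, adjusted p = 0.00476). Ccl2 was 1.09 to 2.22 TPM and 0.101 to 1.10 TPM in the same groups (0.54 ± 0.16, adjusted p = 0.0266). Both pairs of ranges touched only at their edges, and the Ccl2 call was lost in 4 of 17 alternative fits, 3 of which left out BALB/cJ mouse 1, 3 or 5, at an adjusted p of up to 0.0634. Ccl7 was not called (0.46 ± 0.18, adjusted p = 0.0727). Macrophage and dendritic cell markers moved with them: 6 of 10 were higher in BALB/cJ colon, where 14.5% of all genes were. The sum of these markers was 362.1 to 692.9 TPM in BALB/cJ and 206 to 393.9 TPM in C57BL/6J. None was at 0, and their part in the result was not tested.

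Ccl8, a macrophage product that binds Ccr8 in mice, changed direction along the gut. It was 3.71 to 15.96 TPM (median 9.05) in BALB/cJ colon and 1.15 to 8.61 TPM (median 3.73) in C57BL/6J colon, and 5.43 to 26.6 TPM (median 10.7) and 0.290 to 8.57 TPM (median 5.42) in the ileum. In the duodenum/jejunum it was 0 to 0.875 TPM (median 0.359) in BALB/cJ and 0.722 to 4.63 TPM (median 1.69) in C57BL/6J. BALB/cJ medians were thus above those of C57BL/6J in colon and ileum and below in duodenum/jejunum. The differences were 1.01 ± 0.36 (adjusted p = 0.0517), 1.11 ± 0.43 (adjusted p = 0.0773) and -1.08 ± 0.25 (adjusted p = 0.0117). Of these only the last was called. Without C57BL/6J mouse 2 the colon difference was called (1.19, adjusted p = 0.0191), and in the duodenum/jejunum Ccl8 no longer passed the filter on low values, which it did in 11 of 18 alternative fits. The test that the strain difference changes between tissues was passed (F = 10.9, adjusted p = 0.00645). Within BALB/cJ, Ccl8 was higher in ileum than in duodenum/jejunum by 3.07 ± 0.31 (adjusted p = 5.11e-07). In C57BL/6J that difference was 0.88 and not called (adjusted p = 0.178), or 1.38 and called without mouse 2 (adjusted p = 0.000816).

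Ccl24, also an eosinophil attractant, lies on chromosome 5 (135569937 to 135573049, minus strand) and rose towards the proximal gut. Colon levels were 0.731 to 3.29 TPM in BALB/cJ and 0.514 to 1.496 TPM in C57BL/6J, and duodenum/jejunum levels were 14.6 to 29.8 TPM and 4.17 to 20.1 TPM. In BALB/cJ ileum it was 4.43 to 11.5 TPM (median 7.49), between the other tissues. Colon was lower than duodenum/jejunum by -3.02 ± 0.27 in BALB/cJ (adjusted p = 8.74e-09) and by -2.701 ± 0.53 in C57BL/6J (adjusted p = 0.000138). Among C57BL/6J ileum libraries, 6 of 7 held 0.487 to 1.504 TPM and mouse 2 held 34.97 TPM. With that mouse the strain difference in the ileum was 1.60 ± 0.64 and not called (adjusted p = 0.088). Without it, all BALB/cJ ileum libraries lay above all C57BL/6J ones, and the difference was 2.22 (adjusted p = 9.99e-06). The change of the strain difference between tissues was also called only without that mouse (adjusted p = 0.454 with it and 0.00219 without it). The strain differences of Ccl24 in colon (0.54, adjusted p = 0.0843) and duodenum/jejunum (0.86) were positive and not called. Siglecf, a surface protein of eosinophils, was lower in BALB/cJ colon, ileum and duodenum/jejunum (-0.58, -1.01 and -0.77, with adjusted p = 0.00795, 0.00596 and 0.00957). It was the only eosinophil marker tested in the colon. Ccr3, the receptor of Ccl11 and Ccl24, stayed at or below 1.48 TPM in every library.

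The interferon-inducible ligands Cxcl9, Cxcl10 and Cxcl11, which recruit activated T cells through Cxcr3, form a block on chromosome 5 (92321347 to 92365485, minus strand). The RefSeq promoter windows of Cxcl10 (chr5:92348840-92349139) and Cxcl9 (chr5:92328030-92328329), minus strand, GRCm38.p6, are shown because these neighbours differed between the strains in the same tissue. Each runs from 250 bases before to 50 bases after the start site, and capitals mark the core letters of the interferon-stimulated response element, GAAANNGAA, searched on both strands.
Cxcl10: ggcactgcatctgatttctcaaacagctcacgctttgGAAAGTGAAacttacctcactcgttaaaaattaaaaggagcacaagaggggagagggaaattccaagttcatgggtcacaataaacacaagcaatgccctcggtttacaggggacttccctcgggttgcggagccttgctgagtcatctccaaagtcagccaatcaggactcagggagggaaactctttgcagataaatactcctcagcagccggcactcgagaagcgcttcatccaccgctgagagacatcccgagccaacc
Cxcl9: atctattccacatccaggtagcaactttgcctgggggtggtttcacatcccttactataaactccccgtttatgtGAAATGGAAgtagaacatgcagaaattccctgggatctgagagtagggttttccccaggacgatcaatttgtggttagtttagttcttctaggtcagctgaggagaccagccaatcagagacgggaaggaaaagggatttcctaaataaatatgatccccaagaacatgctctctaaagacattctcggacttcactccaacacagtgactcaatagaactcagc
Each window held 1 match, with its first base at -213 from the start site in Cxcl10 and -175 in Cxcl9, as did those of Ccl1, Ccl3 and Ccl19. Of all 32851 RefSeq promoter windows, 8.56% held these letters, against 5 of 30 windows that belong to 24 of the ligands. These matches describe the letters alone.

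In the colon, Cxcl10 was 2.27 to 5.02 TPM (median 3.38) in BALB/cJ and 0.832 to 2.48 TPM (median 2.09) in C57BL/6J. In the duodenum/jejunum the order was the other way, at 0.915 to 2.75 TPM (median 1.80) in BALB/cJ and 1.77 to 7.58 TPM (median 4.14) in C57BL/6J. Ranges overlapped in both tissues, and both differences passed the test, with 0.67 ± 0.17 in the colon (adjusted p = 0.0107) and -0.95 ± 0.25 in the duodenum/jejunum (adjusted p = 0.024). The duodenum/jejunum call was lost in 7 of 18 alternative fits, at an adjusted p of up to 0.0732, among them those without BALB/cJ mouse 3, 4 or 6 or C57BL/6J mouse 7. The ileum difference of -0.48 ± 0.27 was not called. The strain difference changed between tissues (F = 11.6, adjusted p = 0.00472).

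Cxcl9 was 0.462 to 2.28 TPM (median 1.42) in BALB/cJ and 1.82 to 6.20 TPM (median 4.18) in C57BL/6J duodenum/jejunum, a difference of -1.01 ± 0.25 (adjusted p = 0.016). In the colon it stayed below the filter, at 0.682 to 1.76 TPM and 0.412 to 0.999 TPM. Its strain difference also changed between tissues (F = 8.37, adjusted p = 0.0211). In the ileum, leaving out BALB/cJ mouse 2 moved the Cxcl10 difference to -0.701 and made it a call (adjusted p = 0.0402).

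Cxcl11, their neighbour, was higher in BALB/cJ ileum. It was 1.87 to 6.52 TPM in BALB/cJ and 0.925 to 2.36 TPM in C57BL/6J ileum (0.69 ± 0.21, adjusted p = 0.0378), a call lost in 12 of 18 alternative fits. The duodenum/jejunum difference of Cxcl11 was 0.25 ± 0.17 and not called (adjusted p = 0.47). GENCODE M21 annotates Cxcl11 as a polymorphic pseudogene, and C57BL/6 mice are known to carry a frameshift in it. Some 42.2% of its 31-base words are shared, mostly with Gm2673 on the other strand, so its level is uncertain. All 3 ligands were lower in colon than in ileum in C57BL/6J, by -1.94 ± 0.22 for Cxcl9, -1.23 ± 0.24 for Cxcl10 and -0.67 ± 0.14 for Cxcl11 (adjusted p = 1.09e-07, 0.000133 and 0.000244).

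**Figure D4:**
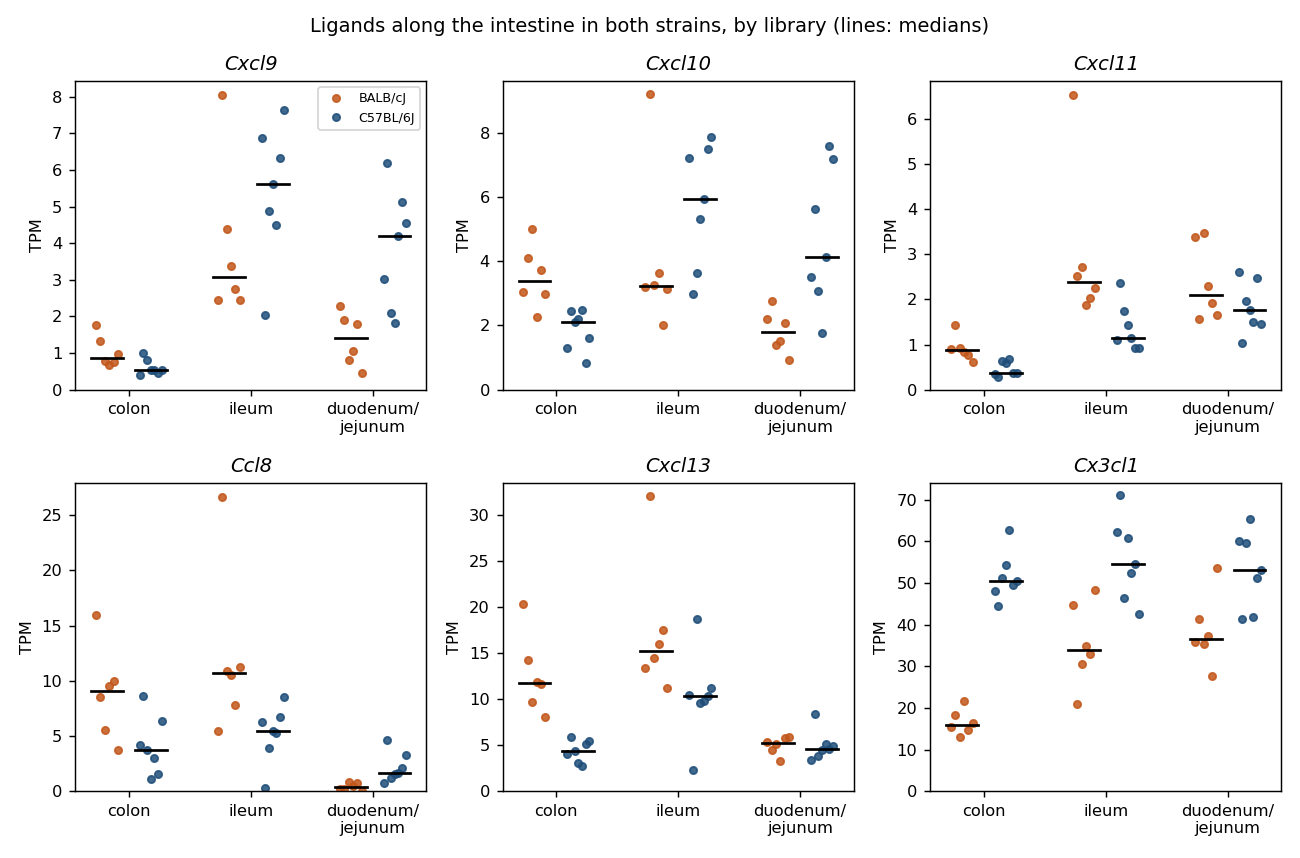
TPM (linear axis) of the 3 Cxcr3 ligands, Ccl8, Cxcl13 and Cx3cl1 in each library by tissue, with BALB/cJ (orange) left of C57BL/6J (blue) and black lines at medians. Cxcl10 and Ccl8 medians are higher in BALB/cJ colon and lower in BALB/cJ duodenum/jejunum, Cxcl13 separates the strains in the colon, and Cx3cl1 separates them most in the colon, at 13.05 to 21.8 TPM in BALB/cJ and 44.5 to 62.7 TPM in C57BL/6J.

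Of 6 ligands that organise lymphoid tissue, Cxcl13, Cxcl12 and Ccl21a were called higher in BALB/cJ colon. The other 3 were not called, with differences of 0.52 for Ccl19, -0.50 for Ccl21b and -0.26 for Ccl21c. Cxcl13, which draws B cells with Cxcr5 into follicles, was 8.03 to 20.3 TPM (median 11.8) in BALB/cJ colon and 2.78 to 5.94 TPM (median 4.38) in C57BL/6J colon. The groups did not overlap, and the means differed 2.87-fold (1.31 ± 0.19, adjusted p = 0.000156). In the ileum the values were 11.2 to 32.02 TPM (median 15.2) and 2.35 to 18.7 TPM (median 10.4), with overlap and no call (0.76 ± 0.33). In the duodenum/jejunum the levels were close, at 5.02 ± 0.99 TPM and 4.99 ± 1.63 TPM (0.03 ± 0.17). The change between tissues passed the test (F = 6.39, adjusted p = 0.0476), and did not in 3 of 6 alternative fits. Cxcl13 was higher in ileum than in duodenum/jejunum in BALB/cJ (1.56 ± 0.22, adjusted p = 2.34e-05) and, without mouse 2, in C57BL/6J (1.20, adjusted p = 1.3e-05).

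Markers of B cells moved with Cxcl13. In BALB/cJ colon all 8 were higher, where 14.5% of all genes were. The sum of the 8 was 48.6 to 78.1 TPM against 15.45 to 29.1 TPM in C57BL/6J, and none was at 0 in every library of a group. Cd79a (1.25 ± 0.13) and Cd22 (1.38 ± 0.16) led them, with adjusted p = 8.01e-06 and 1.93e-05. In the ileum 3 of 8 were called higher (17.2% of all genes), and in the duodenum/jejunum 0 of 8 were called (2 higher at an unadjusted p under 0.05). The receptor genes Cxcr5 (0.77 ± 0.11, adjusted p = 0.000112) and Ccr7 (0.97 ± 0.13, adjusted p = 8.16e-05) were higher in BALB/cJ colon as well. The part of B cell content in the ligand differences was not tested.

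Cxcl12, a stromal ligand of Cxcr4, was 34.4 to 54.3 TPM (median 51.1) in BALB/cJ colon and 27.02 to 48.8 TPM (median 32.1) in C57BL/6J colon. Ileum levels were 22.8 to 45.8 TPM (median 25.7) and 5.14 to 19.1 TPM (median 15.1), and duodenum/jejunum levels were 10.3 to 24.3 TPM and 10.1 to 16.8 TPM. The ileum groups did not overlap. Strain differences were called in colon (0.49 ± 0.13, adjusted p = 0.0127) and ileum (1.02 ± 0.24, adjusted p = 0.0105; 0.81 without C57BL/6J mouse 2, adjusted p = 0.00157), and not in duodenum/jejunum (0.35 ± 0.18). Colon exceeded duodenum/jejunum by 1.42 ± 0.18 in BALB/cJ (adjusted p = 1.29e-06) and by 1.28 ± 0.20 in C57BL/6J (adjusted p = 8.83e-06). Summed levels of 4 fibroblast markers were 1168 to 2053 TPM in BALB/cJ and 828 to 1422 TPM in C57BL/6J colon, and 765 to 1390 TPM and 143 to 607 TPM in the ileum. In each tissue 3 of these 4 markers were called higher, beside 14.5% of all genes in colon and 17.2% in ileum. None was at 0, and their part was not tested.

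Ccl21a and Ccl19 guide T cells and dendritic cells with Ccr7 into lymph vessels and lymphoid tissue. Ccl21a was 55.3 to 141.2 TPM (median 105.8) in BALB/cJ colon and 33.4 to 72.5 TPM (median 49.5) in C57BL/6J colon, which overlapped (0.98 ± 0.21, adjusted p = 0.00315). In the ileum it was 66.1 to 159.4 TPM (median 76.8) and 7.17 to 56.7 TPM (median 47.2), without overlap (1.32 ± 0.39, adjusted p = 0.0303). That call was lost without BALB/cJ mouse 2 (1.14, adjusted p = 0.0699) and in 6 of 18 alternative fits in all. The duodenum/jejunum gave 29.1 ± 5.6 TPM and 30.3 ± 8.2 TPM (-0.03 ± 0.19). Ccl19 was not called between the strains in any tissue, and was higher in ileum than in duodenum/jejunum in both (1.37 ± 0.25 in BALB/cJ, adjusted p = 0.000282; 1.18 ± 0.30 in C57BL/6J, adjusted p = 0.0167). The C57BL/6J call was lost in 5 of 12 alternative fits, at an adjusted p of up to 0.0837, among them those without mouse 3, 5, 6 or 7. Some 58.8% of the 31-base words of Ccl19 occur in other genes, chiefly Gm2564, so its level is uncertain.

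Ccl21a has near-identical copies on chromosome 4, and this limits what its level means. A stretch of the coding sequence, bases 164 to 223 counted from 1 at the start codon of GENCODE M21 transcripts, shows how little separates Ccl21a from Ccl21b, with the differing base in capitals.
Ccl21a: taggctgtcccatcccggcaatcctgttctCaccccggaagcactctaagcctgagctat
Ccl21b: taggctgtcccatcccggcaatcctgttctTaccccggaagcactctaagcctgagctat
Over 402 coding bases the only differences were T84A and C194T, with the Ccl21a base first. The copies are known for encoding forms named CCL21-Ser and CCL21-Leu. Coding sequences of Gm21541, Gm13304 and Gm10591 differed from Ccl21b at 0 bases. Ccl21c carried the same value as Gm10591 in all 39 libraries. Gm21541 was listed at 0 in all BALB/cJ colon and duodenum/jejunum libraries, and ranged from 0.00646 to 16.5 TPM in C57BL/6J colon. Summed over the 6 entries, colon levels were 65.7 to 162 TPM (mean 115 ± 33) in BALB/cJ and 51.3 to 99.0 TPM (mean 77.4 ± 16.5) in C57BL/6J, a smaller gap than for Ccl21a alone. Ileum sums were 66.4 to 162.1 TPM and 11.3 to 84.2 TPM, and both tissues overlapped.

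The membrane-anchored ligands were expressed in all tissues and went in opposite directions. Cx3cl1 (fractalkine), whose receptor Cx3cr1 marks intestinal macrophages, was 13.05 to 21.8 TPM (median 15.9) in BALB/cJ colon and 44.5 to 62.7 TPM (median 50.4) in C57BL/6J colon. The groups did not overlap, and the means differed 3.1-fold (-1.59 ± 0.10, adjusted p = 3.49e-08). In the ileum it was 20.97 to 48.4 TPM (median 33.9) and 42.6 to 71.2 TPM (median 54.5), with slight overlap (-0.67 ± 0.17, adjusted p = 0.016). The duodenum/jejunum, at 27.6 to 53.5 TPM (median 36.5) and 41.4 to 65.3 TPM (median 53.1), was not called (-0.47 ± 0.15, adjusted p = 0.0595), though it was after RLE scaling (adjusted p = 0.0116) and without C57BL/6J mouse 2 (-0.52, adjusted p = 0.0376). The strain difference changed between tissues (F = 15.8, adjusted p = 0.000681). In C57BL/6J the tissue differences lay between -0.10 and 0.07, and none was called. After RLE scaling, however, Cx3cl1 was called lower in C57BL/6J colon than in ileum (-0.39, adjusted p = 0.00657) and than in duodenum/jejunum (-0.37, adjusted p = 0.00906). In BALB/cJ the colon was lower than the ileum (-1.01 ± 0.18, adjusted p = 0.000102) and the duodenum/jejunum (-1.15 ± 0.18, adjusted p = 1.4e-05).

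Cx3cr1 went the other way from its ligand: it was higher in BALB/cJ colon (8.97 ± 2.71 TPM against 4.99 ± 1.47 TPM; 0.72 ± 0.18, adjusted p = 0.0089) and BALB/cJ ileum (0.91 ± 0.17, adjusted p = 0.00198). Cx3cl1 shares no 31-base word with another gene and overlaps none. Epithelial cells are among the makers of fractalkine, and the 5 epithelial markers summed to 4854 to 5282 TPM in BALB/cJ colon and 5175 to 5372 TPM in C57BL/6J colon. Of these, 1 of 5, Cdh1, was called lower in BALB/cJ colon (-0.26 ± 0.06, adjusted p = 0.00759), where 10.8% of all genes were.

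Cxcl16, the ligand of Cxcr6 on T and innate lymphoid cells, was 11.3 to 14.2 TPM (median 12.7) in BALB/cJ colon and 8.02 to 11.8 TPM (median 8.58) in C57BL/6J colon (0.42 ± 0.09, adjusted p = 0.00394). It was 19.8 to 29.7 TPM and 14.1 to 26.5 TPM in the ileum (0.45 ± 0.14, adjusted p = 0.0401), and 24.6 ± 3.6 TPM and 19.8 ± 3.8 TPM in the duodenum/jejunum (0.31 ± 0.13, not called). Ranges overlapped in all tissues. The ileum call was lost after RLE scaling (0.26, adjusted p = 0.294) and in 12 of 18 alternative fits in all. Both strains had less in the colon than in the ileum (-0.86 ± 0.12 in BALB/cJ and -0.83 ± 0.13 in C57BL/6J; adjusted p = 5.66e-06 and 8.99e-06). Some 18.5% of its 31-base words lie in Zmynd15 on the other strand, so some reads may belong to either gene. Cxcr6 was higher in BALB/cJ colon (0.38 ± 0.11, adjusted p = 0.0244) and ileum (0.63 ± 0.14, adjusted p = 0.00743).

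The 4 neutrophil-attracting ligands Cxcl1, Cxcl2, Cxcl3 and Cxcl5 were scarce in these guts: none passed the filter for a strain test, and the highest value was 2.10 TPM, for Cxcl5. The 5 neutrophil markers in the colon summed to 98.2 to 159 TPM in BALB/cJ and 53.3 to 104.5 TPM in C57BL/6J. Of these markers, S100a9 was at 0 in every C57BL/6J colon library, so the sum there rests on the others. These sums therefore cannot be read as neutrophil content. In the ileum the sums were 2.82 to 9.02 TPM in BALB/cJ and 1.65 to 4.49 TPM in C57BL/6J. Neutrophil content was not tested.

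Tissues of 1 strain were compared as well. In colon against ileum, 5 of 25 tested ligands were higher and 8 lower in BALB/cJ (30.5% and 16.2% of all 16204 genes), and 3 of 26 were higher and 11 lower in C57BL/6J (47.8% and 15.6% of 16237 genes). In colon against duodenum/jejunum, 13 were higher and 6 lower in BALB/cJ (50% and 14.6% of genes), and 6 were higher and 10 lower in C57BL/6J (51% and 15.4%). The higher calls in C57BL/6J include Ccl21a, Ccl21b and Ccl21c, which have near-identical copies and so may not be separate findings. The calls of Ccl21a and Ccl21b were lost in 10 and 7 of 12 alternative fits, and that of Ccl21c in 0. In ileum against duodenum/jejunum, 12 were higher and 2 lower in BALB/cJ (35.6% and 7.87%), and 1 was higher and 1 lower in C57BL/6J (4.69% and 4.64%), or 5 and 3 without mouse 2. Without that mouse, 1984 of 3664 calls over all genes were higher in this C57BL/6J contrast. Whole tables shifted in most of these contrasts: medians over all genes were 0.11, 0.21 and 0.31 for colon against ileum, ileum against duodenum/jejunum and colon against duodenum/jejunum in BALB/cJ, and 0.25, 0.04 and 0.29 in C57BL/6J. After RLE scaling the higher and lower ligands numbered 4 and 8, 10 and 3, and 10 and 6 in BALB/cJ, and 3 and 12, 1 and 1, and 4 and 12 in C57BL/6J. Of all genes called after that scaling, 51%, 50.1% and 49.7% were higher in BALB/cJ, and 50.5%, 43.4% and 50.1% in C57BL/6J. As reported, these shares of calls were 65.3%, 81.9% and 77.4% in BALB/cJ, and 75.4%, 50.3% and 76.8% in C57BL/6J. These tissues come from the same animals, a pairing that the main fits leave out. With the animal as a fixed factor, Ccl27a was also called lower in C57BL/6J ileum than in duodenum/jejunum (-0.36, adjusted p = 0.047). The higher level of Ccl21b in C57BL/6J colon than in duodenum/jejunum (1.21, adjusted p = 0.0371) was then no longer called (adjusted p = 0.0549). This call was also lost after RLE scaling (0.951, adjusted p = 0.113). Of the 31-base words of Ccl21b, 100% occur in other genes, so its level is uncertain.

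Ligands whose strain difference changed between tissues numbered 6 of 28 tested, namely Cx3cl1, Cxcl10, Ccl8, Cxcl9, Cxcl13 and Ccl27a, where 9.21% of 17126 genes were called. With the mouse as a correlated block 10 were called, the additions being Ccl12, Ccl20, Ccl21a and Ccl25. The share over all genes in that fit is not given here, so the rise cannot be read as particular to the ligands. The call of Ccl27a (F = 6.31, adjusted p = 0.0493) was lost in 5 of 6 alternative fits. Without C57BL/6J mouse 2, Ccl12 (adjusted p = 0.0426), Ccl21a (adjusted p = 0.0229), Ccl24 (adjusted p = 0.00219) and Ccl25 (adjusted p = 0.0362) were called and Ccl27a was not (adjusted p = 0.0756).

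Genes of the wider chemokine pathway were tested in the same fits. Of all genes tested, 14.5% were called higher and 10.8% lower in BALB/cJ colon, and 17.2% and 3.17% in the ileum. In the duodenum/jejunum these shares were 4.7% and 4.8%. The counts that follow stand beside these shares, and the ileum share holds the shift of the whole table. Among 13 tested chemokine receptors, 10 were higher and 0 lower in BALB/cJ colon, 5 of 15 were higher and 0 lower in the ileum, and 0 of 13 were called in the duodenum/jejunum (1 higher and 3 lower at an unadjusted p under 0.05). Adhesion molecules of leukocyte homing gave 6 of 8 higher in the colon, among them Itgae (1.02 ± 0.12, adjusted p = 1.44e-05), then 3 of 8 for ileum and 2 of 8 for duodenum/jejunum. Among inducing cytokines and their transcription factors 3 of 8 were higher in the colon, and Ltb, a lymphotoxin subunit that acts in lymphoid tissue, was higher in all tissues (1.14, 0.95 and 0.65; adjusted p = 0.00012, 0.0172 and 0.00489). Atypical receptors, which take up chemokines without signalling through G proteins, gave 0 of 5, 0 of 4 and 0 of 4 calls, and at an unadjusted p under 0.05 there was 1 in each tissue, higher in colon and ileum and lower in duodenum/jejunum. Of the proteases that cut chemokines, Mmp9 was higher in BALB/cJ colon (0.59 ± 0.17, adjusted p = 0.022) and lower in BALB/cJ ileum (-1.16 ± 0.26, adjusted p = 0.00719) and duodenum/jejunum (-1.99 ± 0.20, adjusted p = 4.23e-06). Results of the other proteases are not given here, so Mmp9 does not stand for the list. T cell markers gave 5 of 7 higher in the colon, 2 of 8 in the ileum, and 1 of 8 lower in the duodenum/jejunum. Pf4, a platelet chemokine with another kind of symbol, was lower in BALB/cJ duodenum/jejunum (-0.89 ± 0.22, adjusted p = 0.0172). Results of the other chemokines with such symbols are not given here.

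Other cell type markers, whose part in the ligand differences was not tested, gave these counts. Shares over all genes were 14.5% higher and 10.8% lower for colon, 17.2% and 3.17% for ileum, and 4.7% and 4.8% for duodenum/jejunum. Eosinophil markers were lower in BALB/cJ, with 1 of 1 tested for colon, 2 of 2 for ileum and 2 of 2 for duodenum/jejunum. Mast cell markers were higher, 1 of 1, 2 of 2 and 2 of 2, and include the mucosal proteases Mcpt1 (1.49 ± 0.30 in ileum, adjusted p = 0.00396) and Mcpt2 (1.44 ± 0.27, adjusted p = 0.00203). Adipocyte markers were higher in 3 of 4 in the colon and 1 of 4 in the ileum. Among 6 endothelial markers, 1 was higher in the colon, and 2 were higher and 1 lower in the ileum. Smooth muscle markers were lower in 2 of 4 in the colon.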

How the data were processed

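RNA was measured in 39 libraries, 1 per mouse and tissue. Per the labels' protocols, a PureLink kit gave the RNA and ribosomal RNA was depleted before total RNA libraries were built. Per the submitters' processing notes, kallisto 0.44.0 and the GRCm38 build were used; the index annotation and strand setting are not given in the sources used here. Each deposited table holds log2(TPM + 1) values made by the authors for 34600 entries in 1 tissue, and 0 columns belong to other samples. TPM keeps no read depth, so depth is unknown and no counting interval is given.

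TPM was recovered from the log2 values. A gene entered a comparison if 6 or more of its libraries reached 1 TPM, and was tested with limma 3.58.1 (R 4.3.3, variance trend) on log2(TPM + 1), and p-values were adjusted by Benjamini-Hochberg over all genes tested. Tissues of 1 strain were fitted together, and the change of the strain difference between tissues was an F test on 2 degrees of freedom over all 39 libraries. The procedure was tested on simulated data. Alternatives were RLE scaling, no filter, a pseudocount of 0.1, a replicate block, an exact permutation test, and leaving out single mice; the joint one of RLE scaling without C57BL/6J mouse 2 was chosen after seeing the data. Ligands called between the strains, or averaging at least 10 TPM in a group, are described with values. Of the pathway and cell type lists, most give counts, some for part of the tissues only. Each names at most 2 genes with the smallest adjusted p, besides receptors of the described ligands. Counts of calls are not given for proteases, chemokines with other symbols, neutrophils, or markers of gut regions, stomach and pancreas. Ccl3, Ccl7, Ccl19, Ccl21b, Cxcl5 and the genes that share sequence or position with a ligand fall outside these rules and were named after their values were seen. Members and lists were chosen with earlier results of these data known.

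Mice are separate animals, and the labels name no batch. Equal mouse numbers do not pair mice of the 2 strains: correlations of their deviations from group means ran from -0.347 to 0.225. Tissues of the same mouse are paired by animal, with correlations from -0.168 to 0.404 and a consensus of 0.096. The main fits leave this pairing out and treat the libraries as independent. The animal enters only in the alternative with a replicate block. Coordinates are from GENCODE M21 on GRCm38, and promoter windows from RefSeq on GRCm38.p6, which held windows for 24 ligands. Python 3.11.15 with pandas 2.3.3, scipy 1.17.1 and matplotlib 3.10.9 was used for the summaries.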

Additional observations from a re-analysis of the deposited data

Results flagged for a closer look

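In 24 of 120 groups of a ligand, strain and tissue, 1 library lay far from the others of its group. The cut-off flags about 1 group in 20 for independent, normally spread values. These groups share libraries and TPM need not be so spread, so the 24 cannot be set against that rate. The ileum of BALB/cJ mouse 2 was such a library for Ccl12 (4.63 TPM), Ccl21a (159.4 TPM), Ccl25 (564.6 TPM, the lowest), Ccl8 (26.6 TPM), Cxcl9 (8.05 TPM), Cxcl10 (9.20 TPM), Cxcl12 (45.8 TPM) and Cxcl13 (32.02 TPM). The ileum of C57BL/6J mouse 2 was one for Ccl24 (34.97 TPM), Ccl25 (868.1 TPM), Ccl6 (44.8 TPM, the lowest), Cxcl12 (5.14 TPM, the lowest) and Cxcl16 (26.5 TPM). Its duodenum/jejunum library was one for Ccl2 (1.30 TPM) and Cxcl13 (8.43 TPM), and its colon library for Ccl4 (1.02 TPM) and Cxcl12 (48.8 TPM). Other BALB/cJ libraries were the ileum of mouse 4 for Ccl5 (54.2 TPM), the ileum of mouse 1 for Cxcl11 (6.52 TPM), the colon of mouse 2 for Cxcl11 (1.43 TPM) and the duodenum/jejunum of mouse 5 for Ccl6 (268.3 TPM). Other C57BL/6J libraries were the ileum of mouse 3 for Ccl20 (2.61 TPM, the lowest) and Ccl27a (7.78 TPM), and the colon of mouse 1 for Ccl6 (466.5 TPM, the lowest).

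The strain difference changed between tissues, by limma's F test, for Cx3cl1 (adjusted p = 0.000681), Cxcl10 (adjusted p = 0.00472), Ccl8 (adjusted p = 0.00645), Cxcl9 (adjusted p = 0.0211), Cxcl13 (adjusted p = 0.0476) and Ccl27a (adjusted p = 0.0493).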

How the results depend on the processing

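Counts of called ligands stayed within 1.5 times the reported count in the settings run for colon strain differences, colon against ileum and colon against duodenum/jejunum. Ileum strain calls numbered 8 as reported, 5 with RLE scaling, 4 with no filter and 3 with a replicate block on mouse numbers that do not pair the animals, and 4 to 10 when single mice were left out, 10 being without C57BL/6J mouse 2. Calls over all genes numbered 3169 as reported, 1803 with RLE scaling and 3628 without C57BL/6J mouse 2. Duodenum/jejunum strain calls numbered 5, with 3 under no filter, 3 with the replicate block (Ccl8 among those lost, adjusted p = 0.0578), 2 with RLE scaling and C57BL/6J mouse 2 left out together, and 3 to 5 without single mice. In C57BL/6J, ileum against duodenum/jejunum gave 2 calls, 1 with a pseudocount of 0.1, 8 without mouse 2 with or without RLE scaling, and 0 to 2 without other single mice. Calls over all genes rose there as well, from 1514 to 3664 without mouse 2, or 3957 with RLE scaling added. Ligands with a strain difference that changed between tissues numbered 6, and 10 with the animal as replicate block. For fits with no filter, a pseudocount of 0.1 or a replicate block, counts over all genes are not given here. Changes of the ligand counts in those fits therefore cannot be read as particular to the ligands. Without C57BL/6J mouse 2 and with RLE scaling, colon against ileum in C57BL/6J reversed for Ccl11 (-0.196), Ccl21a (-0.167) and Ccl9 (-0.059), and the ileum strain difference for Ccl19 (-0.068), Ccl6 (-0.037) and Ccl9 (-0.049). Without mouse 2 alone, Ccl24 reversed in colon against ileum (0.01) and Ccl9 in ileum against duodenum/jejunum (0.21). With RLE scaling, Cxcl5 reversed in colon against duodenum/jejunum (-0.14). None of these was called; the cause was not tested. Depth is unknown, and levels near 1 TPM limit the tests of low ligands.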
